A study of Homo sapiens with 18 samples.

Results

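Whether the expression difference between dye-retaining and dye-diluted osteosarcoma cells depended on the tumor line was examined on 16 of the 18 arrays of the study, namely all those from bone tumors. Both tumor lines, MNNG/HOS (called MNNG) and 143B, descend from the osteosarcoma line HOS, MNNG/HOS through a chemical carcinogen and 143B through a viral oncogene. The cells of every group carried the fluorescent protein ZsGreen and had been grown as orthotopic bone tumors in mice. Tumor cells bright for the membrane dye PKH26 (High, called tumor-initiating cells by the labels) were sorted apart from dye-poor cells (Low, the bulk tumor cells). Fewer cells were sorted for a High than for a Low sample, in both lines. The arrays comprised 4 MNNG_High and 4 MNNG_Low samples from the same tumors (MNNG-1231, MNNG-1232 and MNNG-1233, with MNNG-1235), 5 143B_Low samples from tumors 143B-1251 to 143B-1255, and 3 143B_High samples. Of the 143B_High samples, 1 came from tumor 143B-1253 and 2 were pools of 2 tumors each, labelled 143B-51&52 and 143B-54&55, the former read here as tumors 143B-1251 plus 143B-1252, and the latter as 143B-1254 plus 143B-1255. Values by array are given in ascending order of tumor number, and 143B_High values in the order 143B-1253, 143B-51&52 and 143B-54&55. The labels name no animal ages, and each line stands for itself only. The 2 lung metastasis arrays were left out.

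PKH26 binds to cell membranes and is shared between daughter cells, so each division dims it and the brightest cells are those that have divided least since labelling. A cell that has left the cycle usually carries little mRNA of the genes that run mitosis. Transcription of many of those genes peaks late in the cycle through promoters that hold a cell cycle homology region (CHR) near CCAAT boxes. The CHR is bound by the DREAM and MuvB complexes, which silence these genes in resting cells and activate them in dividing ones, and the CCAAT box is bound by NF-Y.

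The deposited log2 signals were compared gene by gene. A gene was called where the adjusted p of limma, with Benjamini-Hochberg adjustment over the 13521 genes tested, was under 0.05. The line difference was the 143B High minus Low difference minus the MNNG one, so that a negative value means a larger increase, or a smaller decrease, in MNNG. Values written a ± b are log2 differences with their standard error. With no record of separate animals beyond the tumor numbers, each array, of 1 tumor or pool of tumors, counted as 1 independent sample. The main fit did not pair High with Low of the same tumor. Its p values and standard errors are therefore unpaired, and fits with the tumor as a block are given as alternatives. In sorted bulk samples, fewer cells of a type and less RNA per cell cannot be told apart.

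The arrays of the groups stood apart before any gene was considered. The interquartile range of the log2 signal ran from 2.76 to 3.18 in MNNG_High and from 3.29 to 3.40 in MNNG_Low, without overlap (two-sided exact permutation p = 0.0286, adjusted p = 0.0381 over 8 tests; 0.0286 is the smallest p that 4 against 4 allows). In 143B it ran from 3.26 to 3.34 in High and from 3.30 to 3.48 in Low (exact permutation p = 0.0893, adjusted p = 0.102). The narrowest arrays were MNNG-1233 High at 2.76 and MNNG-1231 at 2.84, and MNNG-1232 High and MNNG-1235, at 3.07 and 3.18, lay nearer to the Low arrays. The signal of GAPDH probes near the 3′ end over those near the 5′ end, a measure of RNA integrity, averaged 0.59 log2 in MNNG_High and 0.38 in MNNG_Low (exact permutation p = 0.0286, adjusted p = 0.0381), against 0.76 and 0.65 in 143B (exact permutation p = 0.482). The hybridization controls were brighter in High by 1.13 in MNNG and 1.0 in 143B, without overlap in either line (exact permutation adjusted p = 0.0381 in both). The median signal of the array was higher in High by 0.11 in MNNG and 0.04 in 143B, also without overlap (exact permutation adjusted p = 0.0381 in both). High and Low arrays of 143B thus differed too, in the hybridization controls and the median signal. The part of all these array measures in the gene results was not tested beyond the fits given beside them. Of the genes listed for osteosarcoma identity, several were bright in all groups, with COL1A1 means from 10.5 to 13.8, SPARC from 10.8 to 12.3 and VIM from 14.5 to 14.6. RUNX2 means ran from 8.66 to 10.5 and those of COL1A2 from 6.25 to 8.56. The alkaline phosphatase gene ALPL, an osteoblast marker, stayed between 3.96 and 4.50, under the 5.36 that served as filter value.

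**Figure D1:**
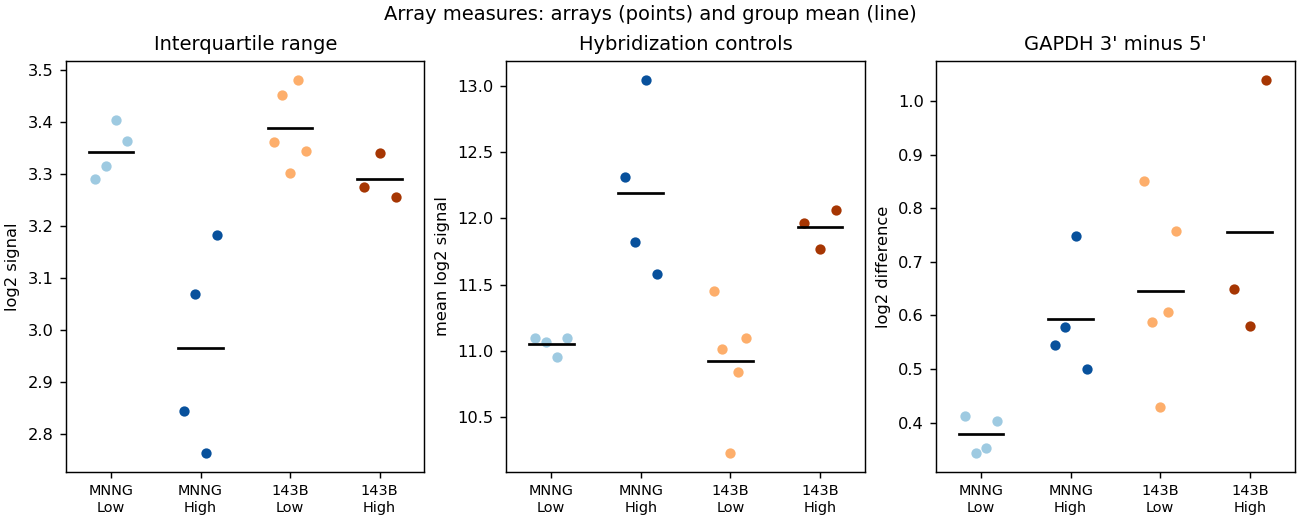
Each panel plots 1 measure per array (points) with the group mean (line) for MNNG_Low, MNNG_High, 143B_Low and 143B_High: interquartile range of log2 signal, mean log2 signal of the hybridization controls, and the GAPDH 3′ minus 5′ log2 difference. The interquartile range of all 4 MNNG_High arrays, at most 3.18, lies under every other array, while 143B_High and 143B_Low overlap.

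A single gene, CELF2, passed the test of the line difference, 0.0074% of the genes tested, although High against Low called very different numbers of genes in the 2 lines. In MNNG, 5985 genes were called, 44.3% of those tested, of which 1827 were higher and 4158 lower in High. In 143B the only called gene was CXCL14, 0.0074% of those tested, with 9.11% of genes at an unadjusted p under 0.05. The line difference itself had an unadjusted p under 0.05 for 2337 genes (17.3%), with 1672 above 0 (12.4%) and 665 below 0 (4.92%). The MNNG count fell to 3765 without MNNG-1231 High, to 2223 with the GAPDH ratio as a covariate, to 451 with the date tag and to 0 with the interquartile range, and the 143B count rose to 186 with array weights. All 4 MNNG_High arrays but only 1 of 4 MNNG_Low arrays carry the same date tag, so High and tag largely coincide in MNNG, while all 143B arrays share 1 tag. No gene was called as moving in opposite directions or in 1 line alone, and CELF2, on its brightest probe set, had 95% intervals on the same side of 0 in both lines. After a second quantile normalization of the 16 arrays, the MNNG split turned to 1827 higher and 988 lower. That step moved the median over genes of the MNNG difference from -0.22 to -0.01 and of the line difference from 0.17 to 0.01.

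The count for the line difference moved with the arrays used and with how tumors were paired. Without MNNG-1235 High it was 189, with 159 genes whose interval left out 0 in MNNG alone, 15 opposite and 15 in the same direction. Without MNNG-1232 High it was 2, and without 143B-1253 High or the pool 143B-51&52 it was 0. With the tumor as a block, which pairs High and Low of the same tumor, 5 genes were called for the line difference, 7578 in MNNG and 7 in 143B. Those 5 were CELF2, CPEB4, CADM1, KNSTRN and WWP2. With the tumor as a random block there were 14, of which 7 had intervals on opposite sides of 0. With arrays weighted by their fit to the group means there were 128, 71 of which were also called without MNNG-1235 High.

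Most genes that moved in MNNG leaned the same way in 143B by a smaller amount. Of the 5985 genes called in MNNG, the 143B estimate had the same sign for 5136 (85.8%), and its 95% interval left out 0 on the same side for 777 and on the opposite side for 21. Over all genes, both intervals left out 0 on the same side for 6.29% and on opposite sides for 0.192%. The share of equal signs over all genes was not counted. In both lines the median difference was above 0 in dim genes and below 0 in bright ones. The part of that in these counts was not tested. Among 146 genes called in MNNG with a change over 1 log2, 138 had the same sign in 143B. The 62 higher ones had a median of 1.29 in MNNG and 0.45 in 143B, and the 84 lower ones a median of -1.07 in MNNG and -0.40 in 143B. These genes were chosen by their size in MNNG, so the larger MNNG medians are a description. Across the 13521 genes the 2 differences had r = 0.61 (Pearson) and rho = 0.63 (Spearman), over genes that share the same arrays and are not independent. For the line difference the median 95% interval reached 0.45 log2 either side, and the interval lay within 1 log2 of 0 for 10980 genes (81.2%).

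**Figure D2:**
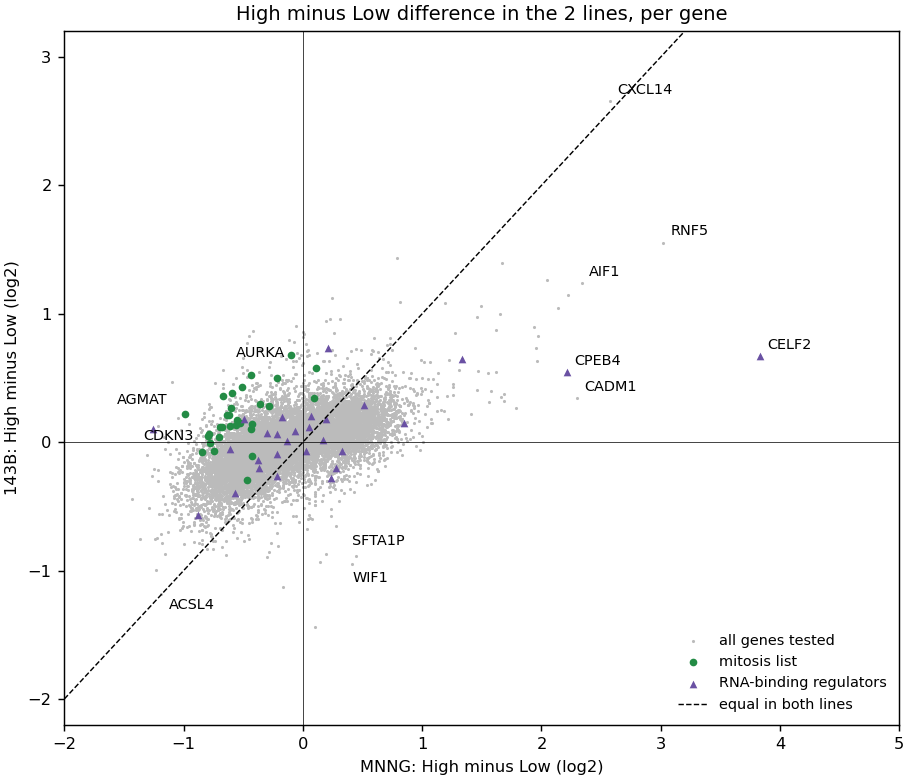
Each point is 1 of the 13521 genes, placed by its High minus Low log2 difference in MNNG (horizontal) and in 143B (vertical), with the mitosis list in green, RNA-binding regulators as purple triangles and equality as a dashed line. CELF2 lies far to the right at 3.83 in MNNG and 0.67 in 143B, CXCL14 lies next to the line of equality, and most of the mitosis list lies left of 0 and above 0.

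CELF2 encodes an RNA-binding protein that controls alternative splicing and mRNA stability. Its log2 signal in MNNG_Low was 7.90, 6.46, 7.19 and 6.80 from MNNG-1231 to MNNG-1235, and in MNNG_High 11.7, 10.7, 11 and 10.2. In 143B_Low it was 9.86, 9.44, 9.20, 9.52 and 9.35, and in 143B_High it was 10.2 for tumor 143B-1253 and 9.90 and 10.3 for the pools 143B-51&52 and 143B-54&55. High lay above Low in both lines without overlap, and the mean of Low was 9.47 in 143B against 7.09 in MNNG. The increase was 3.83 ± 0.29 in MNNG (14.3-fold, limma adjusted p = 4.32e-06) and 0.67 ± 0.30 in 143B (1.59-fold, limma adjusted p = 0.535). The CELF2 line difference was -3.16 ± 0.42 (95% interval -4.05 to -2.28, limma adjusted p = 0.0123), a ratio 8.96-fold larger in MNNG. The gene has 7 probe sets. The 4 that reached the filter had line differences from -3.16 to -0.61, and the second brightest gave 2.70 in MNNG and -0.12 in 143B. Those next in brightness gave -0.03 and -0.14 in 143B. Of these 4, only the probe set used was above 0 in 143B. It was called in 25 of 31 other fits, with adjusted p from 2.91e-05 to 0.306, and lost the call without 143B-1253 High (adjusted p = 0.063) and without the pool 143B-51&52 (adjusted p = 0.0907). It also lost the call without both pools (-3.12, adjusted p = 0.157), with the interquartile range (-2.57, adjusted p = 0.275) and with the date tag (-2.35, adjusted p = 0.306). Without probe sets that can match several transcripts the value shrank to -0.87 (adjusted p = 0.177).

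No other RNA-binding regulator passed the test of the line difference. Of 28 tested members of that list, which was partly drawn up with earlier results known, 6 were called higher and 5 lower in MNNG, against 13.5% and 30.8% of all genes. The line difference was below 0 at an unadjusted p under 0.05 for 6, against 4.92%, and above 0 for 2, against 12.4%. The list's median line difference was 0.13, against 0.17 over all genes, and after the second quantile normalization -0.06 against 0.01. CPEB4, a cytoplasmic polyadenylation factor, gave 8.37, 8.30, 7.88 and 8.20 in MNNG_Low and 11.1, 10.2, 10.2 and 10.1 in MNNG_High. In 143B it gave 8.30, 8.34, 8.66, 8.27 and 8.41 in Low and 9.35, 8.47 and 9.0 in High, where the pool 143B-51&52 lay among the Low arrays. Its line difference was -1.67 ± 0.30 (limma adjusted p = 0.0809), and only 2 of its 4 probe sets had that sign. With the tumor as a block its adjusted p was 0.00634. RBMS1, a single-strand nucleic acid binding protein, rose by 0.85 ± 0.13 in MNNG and had 0.15 ± 0.13 in 143B (line difference -0.70, limma adjusted p = 0.153). QKI, a splicing regulator, rose by 0.33 ± 0.10 in MNNG and had -0.07 ± 0.10 in 143B (line difference -0.40, limma adjusted p = 0.212).

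Genes of mitosis had the largest median line difference of the 42 gene lists examined. The lists were chosen with earlier results of these data known, so this rank and the counts below are a description. All 30 members of the list were tested, and 20 were called lower in MNNG_High, where 30.8% of all genes were. None was called in 143B, where 25 of 30 estimates were above 0, against 44.7% of all genes. Estimates below 0 in MNNG and above 0 in 143B were found for 23 members, against 19.2% of all genes. The line difference was called for none of the 30, but it was above 0 for all 30, against 68.9% of genes, and its unadjusted p was under 0.05 for 24 of them, against 12.4%. The median was -0.58 in MNNG (all genes -0.22), 0.16 in 143B (all genes -0.02) and 0.76 for the line difference (all genes 0.17). By tumor, the median over members was -0.56, -0.36, -0.88 and -0.40 in the MNNG tumors, in the same order. It was 0.31 in 143B tumor 143B-1253 and 0.06 and 0.20 in the pools, so each 143B value lay above each MNNG value. Tumor by tumor, 26 of the 30 genes had no overlap between lines with 143B above, against 17.8% of all genes.

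The promoters of these genes are shown because they carry the 2 elements described above more often than other promoters. RefSeq windows of GRCh38.p14, from 250 bases before to 50 after the start, were found for 25 of the 30 genes (27 windows). TTTGAA or TTCGAA, on either strand, stood in 74.1% of them, against 16.4% of all 35116 windows and 11.9% of those of the genes tested. CCAAT stood in 81.5%, against 34.6% and 34.2%, and both stood in 63.0%, against 6.38% and 4.75%. The motifs can overlap, as TTTGAA does with a reverse CCAAT in CDCA8, and TTCGAA reads the same on both strands. The 30 genes are textbook mitotic genes, and these shares describe the list and not the arrays. Below are bases from 120 before to 30 after the start, on the gene's strand, with CHR letters (TTTGAA or TTCGAA) and CCAAT or its reverse ATTGG in capitals. CDC20, BUB1 and CCNB2 belong to the list, and CDCA8 and CDC25C to the genes with intervals on opposite sides of 0. MCM10, a replication gene with CCAAT but no CHR letters, is shown for contrast.
CDC20, chr1:43358861-43359010, plus strand: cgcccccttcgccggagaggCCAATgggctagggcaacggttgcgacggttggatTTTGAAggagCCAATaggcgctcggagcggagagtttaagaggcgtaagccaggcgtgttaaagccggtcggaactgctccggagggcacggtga
BUB1, chr2:110678034-110678183, minus strand: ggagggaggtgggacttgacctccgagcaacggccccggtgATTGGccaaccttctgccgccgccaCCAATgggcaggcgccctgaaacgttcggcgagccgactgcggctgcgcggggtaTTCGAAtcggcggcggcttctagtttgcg
CCNB2, chr15:59105026-59105175, plus strand: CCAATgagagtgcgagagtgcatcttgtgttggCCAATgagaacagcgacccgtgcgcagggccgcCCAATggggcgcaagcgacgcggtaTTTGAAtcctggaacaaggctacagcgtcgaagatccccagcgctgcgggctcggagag
CDCA8, chr1:37692396-37692545, plus strand: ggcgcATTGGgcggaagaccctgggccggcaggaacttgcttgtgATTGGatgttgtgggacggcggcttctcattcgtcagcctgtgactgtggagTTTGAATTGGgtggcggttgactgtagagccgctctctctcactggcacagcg
CDC25C (1 of its 4 windows), chr5:138331775-138331924, minus strand: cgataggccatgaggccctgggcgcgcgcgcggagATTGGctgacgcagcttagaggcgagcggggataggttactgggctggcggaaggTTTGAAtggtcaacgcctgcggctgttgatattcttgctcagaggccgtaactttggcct
MCM10, chr10:13161438-13161587, plus strand: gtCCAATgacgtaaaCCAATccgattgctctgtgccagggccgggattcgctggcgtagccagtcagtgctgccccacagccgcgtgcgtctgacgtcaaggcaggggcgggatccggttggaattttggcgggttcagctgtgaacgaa

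For CDC25C, the window shown is the only 1 of its 4 with CHR letters in the stretch printed. In the promoters shown, CHR letters follow at least 1 CCAAT or ATTGG in all 5 genes that hold both. The same pair stood in 42.9% of the 21 windows of the genes that were below 0 in MNNG and above 0 in 143B, for which 17 of 19 genes had a window. It stood in 7.69% of the windows of DNA replication genes and 3.33% of those of mitochondrial ribosome genes, lists described below.

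AURKA, the kinase that matures spindle poles, had the smallest p of the line difference in the list. Its log2 signal was 10.2, 9.84, 10.3 and 10.1 in MNNG_Low and 9.66, 9.68, 9.78 and 9.58 in MNNG_High. In 143B it was 9.93, 9.99, 10.2, 10.1 and 9.78 in Low and 10.7, 10.4 and 10.5 in High. High thus lay under every Low array in MNNG and above every Low array in 143B. The difference was -0.44 ± 0.12 in MNNG (limma adjusted p = 0.0102) and 0.53 ± 0.12 in 143B (limma adjusted p = 0.228), with a line difference of 0.96 ± 0.17 (95% interval 0.61 to 1.32, limma adjusted p = 0.0809). Its 2 probe sets that reached the filter gave 0.96 and 0.71. CDKN3, a phosphatase of cyclin-dependent kinases, separated through MNNG alone. It gave 10.3 in all 4 MNNG_Low arrays and 9.45, 9.71, 9.29 and 9.52 in MNNG_High, while 143B_Low (9.83, 10.1, 9.97, 9.93 and 9.86) and 143B_High (10.1, 9.99 and 9.86) overlapped. It fell by 0.79 on the log2 scale in MNNG (limma adjusted p = 5.98e-04), had 0.05 ± 0.11 in 143B, and a line difference of 0.84 ± 0.15 (limma adjusted p = 0.0809).

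Further members had smaller or less even changes. CDC20, the mitotic activator of the anaphase-promoting complex, fell by 0.62 in MNNG (limma adjusted p = 0.00252) and had 0.21 ± 0.13 in 143B. UBE2C, a ubiquitin-conjugating enzyme of that complex, had -0.10 in MNNG and 0.68 in 143B, and the limma adjusted p of its line difference was 0.153. AURKB, the kinase of the chromosomal passenger complex, had -0.51 ± 0.14 in MNNG (limma adjusted p = 0.0103) and 0.43 ± 0.14 in 143B, with a line difference of 0.94 ± 0.20 (limma adjusted p = 0.145). CDK1, the kinase that starts mitosis, had 0.11 in MNNG and 0.58 in 143B, and PLK1, a kinase of spindle assembly, 0.09 and 0.34, and these were the 2 members above 0 in both lines. At the other end, MAD2L1, a spindle checkpoint protein, was below 0 in both lines, at -0.47 and -0.29.

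The size of the mitosis difference varied with scaling, and its sign less so. The median over members, less the median over all genes, was 0.59, and it stayed between 0.50 and 0.74 in the other fits. After the second quantile normalization 29 of 30 line differences were above 0, but only 8 members were called lower in MNNG. With the interquartile range of the array as a covariate, 28 were above 0 and none was called in MNNG, where no gene of the 13521 was. The MNNG count was also 8 with the date tag as a covariate, 10 with the GAPDH ratio and 14 with all 18 arrays. The line difference was called for 10 members with array weights, 8 without MNNG-1235 High, 4 with the tumor as a random block, 1 after median centring and none with the tumor as a fixed block. With array weights the MNNG_High mean rests largely on MNNG-1232 High.

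**Figure D3:**
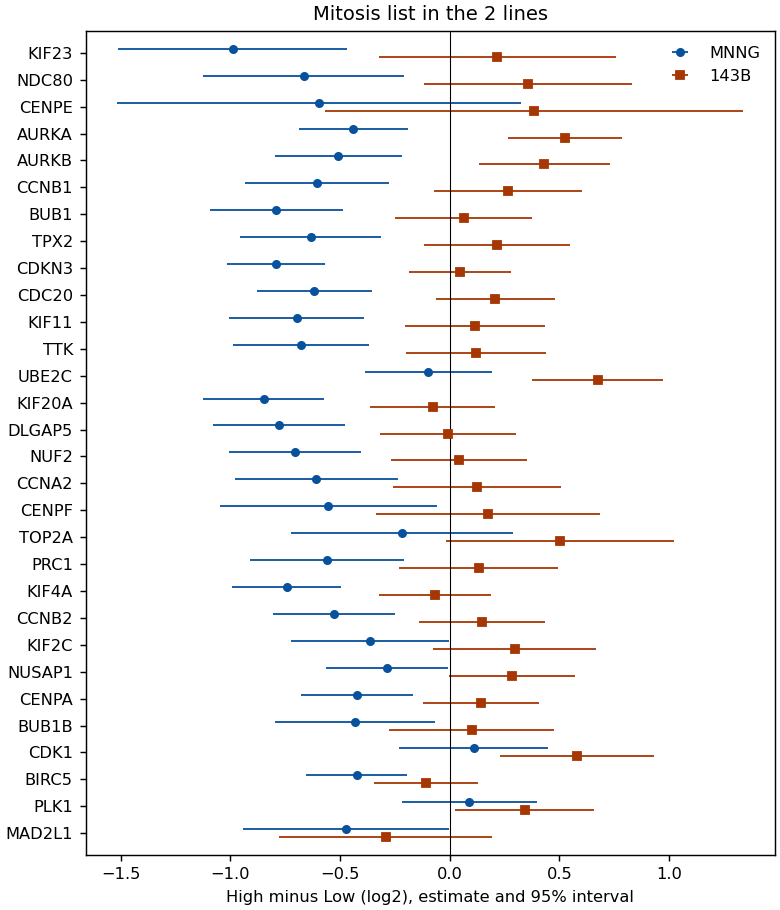
For each of the 30 mitosis genes (rows, ordered by the line difference) the High minus Low log2 difference is plotted with its 95% interval, as blue circles for MNNG and red-brown squares for 143B. The square lies right of the circle in every row, most MNNG intervals lie under 0, and most 143B intervals include 0.

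Beyond CELF2, 10 genes had the smallest p of the line difference without passing. Of these, AURKA and CDKN3 belong to the mitosis list. CDCA8, a subunit of the chromosomal passenger complex, gave 8.23, 7.88, 7.92 and 7.99 in MNNG_Low, 7.51, 7.48, 7.24 and 7.34 in MNNG_High, 7.71, 7.88, 8.0, 7.91 and 7.79 in 143B_Low, and 8.35, 8.17 and 8.04 in 143B_High. Neither line's groups overlapped, and the order of High and Low was reversed between lines. Its line difference was 0.94 ± 0.16 (limma adjusted p = 0.0809). CDC25C, the phosphatase that activates CDK1, gave 7.30, 6.93, 7.34 and 6.91 in MNNG_Low and 6.69, 6.76, 6.82 and 6.56 in MNNG_High. In 143B it gave 7.01, 7.13, 6.76, 7.04 and 7.00 in Low and 7.39, 7.37 and 7.46 in High, again reversed and without overlap. Its line difference was 0.83 ± 0.17 (limma adjusted p = 0.145). KNSTRN, a kinetochore adaptor, fell by 0.78 in MNNG and had 0.27 ± 0.16 in 143B, with a line difference of 1.05 ± 0.22 (limma adjusted p = 0.145, and 0.047 with the tumor as a block).

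The remaining genes of smallest p have other roles, and several were dim in at least 1 line. AGMAT, an agmatinase-like enzyme, gave 6.01, 5.97, 6.41 and 5.88 in MNNG_Low and 4.77, 5.29, 4.85 and 5.18 in MNNG_High, while 143B stayed between 3.46 and 3.84 on all 8 arrays. Its line difference was 1.23 ± 0.19 (limma adjusted p = 0.0552), and the 143B values lay under the filter value, so that a decrease there could not have been measured. WIF1, a secreted Wnt inhibitor, had the reverse layout. It gave 2.90 to 3.81 on the MNNG arrays, under the filter value, and 6.72, 6.92, 7.19, 6.85 and 7.20 in 143B_Low against 6.21, 6.42 and 5.44 in 143B_High. The 143B difference was -0.95 ± 0.20 (limma adjusted p = 0.191) and the line difference -1.36 ± 0.27 (limma adjusted p = 0.145). SFTA1P, a transcribed pseudogene, gave 7.15, 7.52, 7.16, 7.65 and 7.76 in 143B_Low and 6.68, 6.71 and 6.28 in 143B_High, with MNNG between 4.64 and 5.53, where both group means lay under the filter value. Its line difference was -1.33 ± 0.24 (limma adjusted p = 0.0809). TCAF2, a regulator of a cation channel, rose by 0.68 ± 0.11 in MNNG and had -0.14 ± 0.11 in 143B (line difference -0.82, limma adjusted p = 0.129). Its means lay under the filter value in every group but MNNG_High, so these sizes are uncertain.

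**Figure D4:**
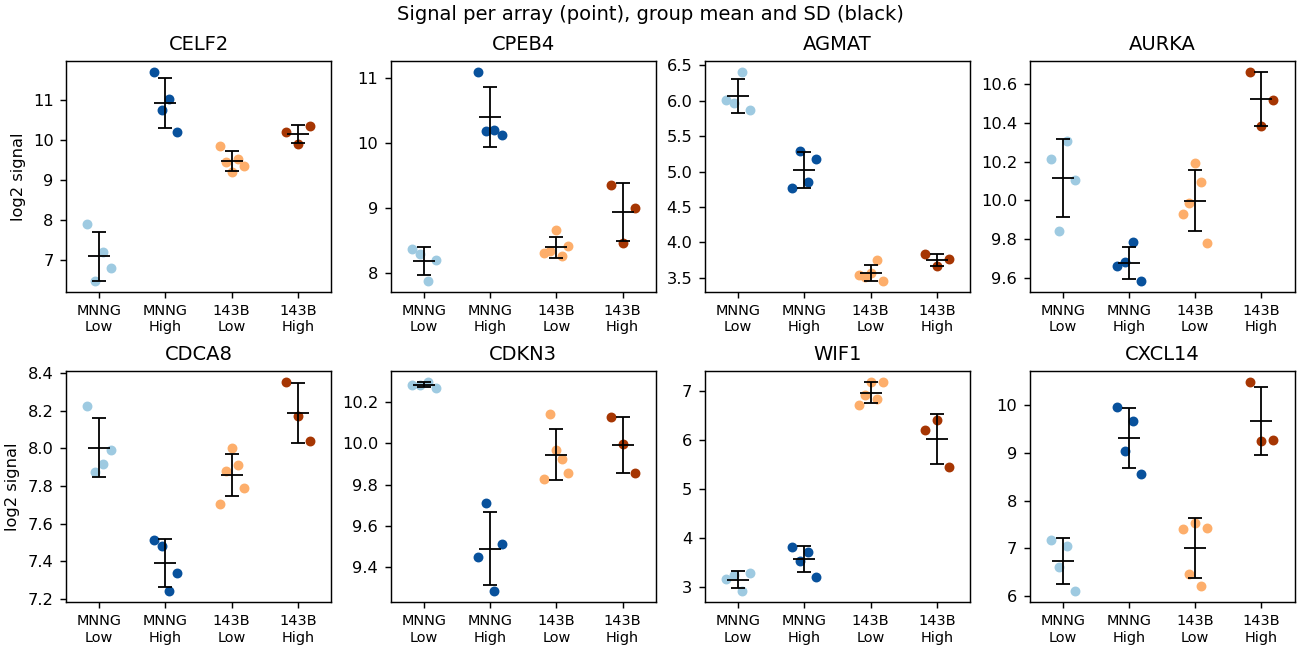
Log2 signal of 8 genes on each array (points), with the group mean and SD in black, for MNNG_Low, MNNG_High, 143B_Low and 143B_High. CELF2 and CPEB4 differ most between High and Low in MNNG, AURKA and CDCA8 turn in opposite directions, AGMAT is dim in 143B and WIF1 in MNNG, and CXCL14 separates High from Low in both lines.

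Opposite directions were seen in 26 genes if each line's own 95% interval, unadjusted, is asked to leave out 0, which is 0.192% of the genes, against 850 (6.29%) with both intervals on the same side. None of the 26 passed the test of the line difference. The tumors of the 2 lines did not overlap for any of them, which the choice of these genes nearly fixes, against 23% of all genes without overlap. Of these, 19 were below 0 in MNNG and above 0 in 143B. Besides CDCA8, AURKA, AURKB and CDC25C they included DEPDC1 (-0.51 and 0.58), a mitotic regulator, and NCAPG (-0.45 and 0.41), a subunit of condensin. HJURP (-0.36 and 0.45), which loads centromeric histone, GTSE1 (-0.20 and 0.34), a microtubule-associated G2 protein, and KIFC1 (-0.25 and 0.38), a minus-end kinesin, were further members. So were PSRC1 (-0.40 and 0.33) and FAM83D (-0.47 and 0.37), both spindle proteins, and CCNF (-0.30 and 0.25), an F-box cyclin. Others have no mitotic role that is well known, among them the neural transcription factor POU3F2 (-0.39 and 0.46), the homeobox gene DLX2 (-0.50 and 0.54) and the laminin chain LAMA2 (-0.42 and 0.28). The remaining ones were CCDC15, PNPLA4, THUMPD3 and MBD4, a DNA glycosylase whose line difference of 0.78 turned to -0.18 without probe sets of the types that can match several transcripts. POU3F2, LAMA2 and PNPLA4 lay under the filter value in 1 line.

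The 7 genes above 0 in MNNG and below 0 in 143B were SFTA1P, WIF1, KCNJ14, SGSM1, DNAAF11, TESK2 and SMARCA2. Of these, SFTA1P and WIF1 had both MNNG means, and SGSM1 both 143B means, under the filter value, so that their direction in that line is uncertain. SMARCA2, an ATPase of the SWI/SNF chromatin remodeler, had 0.40 ± 0.16 in MNNG and -0.36 ± 0.17 in 143B (line difference -0.76, limma adjusted p = 0.179). Its signal in 143B was 7.98, 7.70, 7.76, 7.86 and 7.97 in Low and 7.49, 7.55 and 7.43 in High, so High lay under every Low array. In MNNG it was 6.59, 5.52, 6.06 and 5.84 in Low and 6.49, 6.30, 6.42 and 6.40 in High, and the Low array of tumor MNNG-1231 lay above all High arrays. KCNJ14, a potassium channel, had 0.33 ± 0.10 and -0.30 ± 0.10, on a dim signal between 5.05 and 5.70.

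DNA replication genes had a smaller median line difference than the mitosis list, and the gap between these lists was not tested. All 32 were tested, and 25 were called lower in MNNG, against 30.8% of all genes. None was called in 143B, where 9 estimates were above 0, against 44.7%. The line difference was called for none and was above 0 for 31, against 68.9%, with an unadjusted p under 0.05 for 19, against 12.4%. The medians were -0.46 in MNNG, -0.07 in 143B and 0.38 for the line difference, which lay 0.21 above that of all genes. MCM10, which loads the replicative helicase's partners, gave 8.59, 8.18, 8.52 and 8.36 in MNNG_Low and 7.50, 7.44, 7.26 and 8.02 in MNNG_High, with tumor MNNG-1235 least changed. In 143B it gave 8.65, 8.61, 8.71, 8.86 and 8.42 in Low and 8.59, 8.47 and 8.50 in High, within the Low range. It fell by 0.86 in MNNG (limma adjusted p = 0.00127), had -0.13 ± 0.15 in 143B, and a line difference of 0.73 ± 0.21 (limma adjusted p = 0.164). GINS3 and CDC45, both of the helicase complex, had line differences of 0.65 ± 0.19 and 0.55 ± 0.18, and GMNN, the inhibitor of licensing, 0.56 ± 0.19 (limma adjusted p from 0.164 to 0.206).

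Genes of mitochondrial protein synthesis and of the proteasome were also mostly called lower in MNNG and not called in 143B. Of 28 mitochondrial ribosome genes, 25 were called lower in MNNG (30.8% of all genes) and none in 143B, and the medians were -0.45, -0.06 and 0.37 for the line difference. All 28 line differences were above 0 (68.9% of all genes) and 15 had an unadjusted p under 0.05 (12.4%), with none called. MRPL35 gave 9.67, 9.36, 9.61 and 9.26 in MNNG_Low and 8.94, 8.95, 9.0 and 8.84 in MNNG_High, without overlap. In 143B it gave 9.32, 9.61, 9.48, 9.36 and 9.36 in Low and 9.65, 9.77 and 9.37 in High, with overlap, for a line difference of 0.71 ± 0.17 (limma adjusted p = 0.145). MRPS33, MRPL11 and MRPS22 had line differences of 0.57 ± 0.16, 0.57 ± 0.16 and 0.42 ± 0.15. Against the same 30.8%, of 26 proteasome genes 18 were called lower in MNNG, with a median line difference of 0.27. Of 36 oxidative phosphorylation genes 27 were, with 0.22. The medians in MNNG were -0.33 for the proteasome and -0.36 for oxidative phosphorylation. Among the brightest genes, a group defined under Other observations, the medians were -0.33 in MNNG and 0.25 for the line difference. These 2 lists thus lay close to bright genes in general. The part of signal level in the list counts was not tested. After the second quantile normalization the counts called lower in MNNG were 6 of 32 for replication, 6 of 28 for the mitochondrial ribosome, 1 of 26 for the proteasome and 2 of 36 for oxidative phosphorylation, where 988 of all 13489 genes were. The median line differences were then 0.14, 0.17, 0.12 and 0.10, against 0.01 over all genes.

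**Figure D5:**
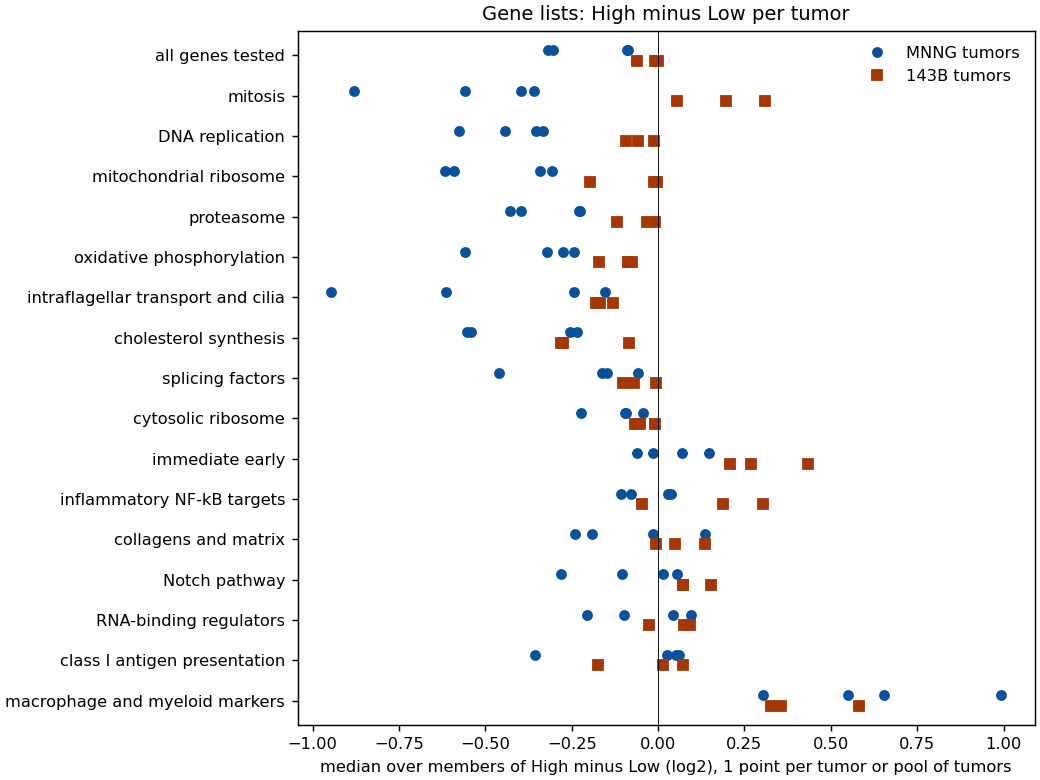
For 16 gene lists and all genes tested (rows), each point is the median over members of the High minus Low log2 difference in 1 tumor or pool, with 4 MNNG tumors as blue circles and 3 143B samples as red-brown squares. The mitosis list is the row with all MNNG points below 0 and all 143B points above 0, while replication, mitochondrial ribosome and proteasome points of 143B lie just below 0 and the macrophage list lies above 0 in both lines.

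The genes of largest change with both intervals on the same side of 0 included CXCL14, the only gene called in 143B. CXCL14, a chemokine of epithelia and stroma, gave 7.17, 6.60, 7.05 and 6.10 in MNNG_Low and 9.97, 9.04, 9.66 and 8.55 in MNNG_High. In 143B it gave 7.41, 6.46, 7.53, 6.21 and 7.43 in Low and 10.5, 9.24 and 9.27 in High. High lay above Low without overlap in both lines. It rose 5.94-fold in MNNG (2.57 ± 0.37, limma adjusted p = 8.06e-04) and 6.30-fold in 143B (2.65 ± 0.39, limma adjusted p = 0.0399), with a line difference of 0.08 and a 95% interval from -1.05 to 1.22. THBS4, a thrombospondin of the matrix, had 1.67 ± 0.30 in MNNG and 1.39 ± 0.31 in 143B (95% interval of the line difference -1.20 to 0.64). On the lower side, ACSL4, a fatty acid ligase, had -1.19 ± 0.38 and -1.18 ± 0.39 (interval -1.15 to 1.15). PTGR2, a prostaglandin reductase, had -1.23 ± 0.20 and -1.0 ± 0.21 (interval -0.38 to 0.85), and ALDH1L2, a mitochondrial folate enzyme, -1.15 ± 0.25 and -0.87 ± 0.26 (interval -0.48 to 1.05). These wide intervals allow differences of about 1 log2 between lines.

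Other genes with large changes in MNNG had smaller estimates in 143B, and none of these line differences passed. RNF5, a ubiquitin ligase, gave 7.05, 6.19, 7.06 and 6.20 in MNNG_Low and 10.7, 9.26, 9.92 and 8.69 in MNNG_High. In 143B it gave 6.89, 6.18, 6.94, 6.31 and 6.41 in Low and 8.75, 7.54 and 8.01 in High, again without overlap. The change was 3.02 ± 0.37 and 1.55 ± 0.38, with a line difference of -1.47 ± 0.53 (limma adjusted p = 0.216). CADM1, a cell adhesion molecule, rose by 2.30 ± 0.38 in MNNG and had 0.34 ± 0.40 in 143B (line difference -1.96 ± 0.55, limma adjusted p = 0.164, and 0.0429 with the tumor as a block). Its 143B_Low arrays, at 9.98 to 10.7, already lay above all MNNG_Low arrays, at 7.62 to 9.74. Among genes that fell in MNNG, NUDT12, a nucleotide hydrolase, had -1.31 ± 0.20 there and -0.10 ± 0.21 in 143B, on a signal under the filter value in 143B. DLEU2, a long noncoding RNA gene, had -1.26 ± 0.18 and -0.26 ± 0.19, and AFG2A, an ATPase, -1.43 ± 0.24 and -0.44 ± 0.25. For SLAIN1 (-1.36 and -0.75), a microtubule protein, and GDAP1 (-1.29 and -0.51), a mitochondrial fission factor, the tumors of the 2 lines overlapped. SLAIN1 had both MNNG means under the filter value, so the size of its change there is uncertain.

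Immediate early genes, which encode transcription factors induced within minutes of a stimulus, including cell dissociation, had mostly positive estimates in 143B. Of 25 tested, 3 were called higher in MNNG, against 13.5% of all genes, and none in 143B, where 21 estimates were above 0, against 44.7%. The medians were -0.01 in MNNG and 0.34 in 143B, with 0.23 for the line difference, 0.06 above all genes. After the second quantile normalization they were 0.20, 0.38 and 0.11, with 5 members called higher in MNNG. ATF3 gave 10.3, 10.6, 10.5 and 10.3 in MNNG_Low and 9.91, 10.4, 10.3 and 10.3 in MNNG_High, and 10.6, 11, 10.9, 10.7 and 10.7 in 143B_Low against 11.2, 11.3 and 11 in 143B_High. The groups overlapped in MNNG and not in 143B, and the line difference was 0.54 ± 0.18 (limma adjusted p = 0.206). FOSB, EGR3 and MYC had line differences of 0.41, 0.60 and 0.36 (limma adjusted p from 0.288 to 0.340), while JUND (0.52 in MNNG and 0.50 in 143B) and NR4A2 (0.64 and 0.65) were close to equal.

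No member of the signaling and identity lists was called for the line difference. In the Notch list of 24, 4 members had an unadjusted p under 0.05 above 0 and 1 below 0, against 12.4% and 4.92% of all genes. HES1, a target, had -0.14 in MNNG and 0.49 in 143B, and NRARP, a feedback inhibitor, -0.16 and 0.35. ADAM10, the protease that cleaves the receptors, rose by 0.69 in MNNG and had 0.08 in 143B, and the ligand DLL3 fell by 0.64 in MNNG and had -0.23. The list's median line difference was 0.18 and turned to -0.02 after the second quantile normalization, against 0.01 over all genes. In the Wnt list of 27, AXIN2, a feedback target, fell by 0.68 in MNNG and had -0.07 in 143B, while AXIN1, its scaffold paralog, had 0.23 and -0.07, and LGR4, an R-spondin receptor, rose by 0.62 and had 0.19. Among 13 regulators of epithelial-mesenchymal transition, ZEB2 rose by 1.97 ± 0.28 in MNNG and had 0.82 ± 0.29 in 143B (limma adjusted p of the line difference 0.211). TCF4 rose by 1.07 and had 0.18, SNAI1 had -0.12 and 0.79, and TWIST2 fell by 0.45 in MNNG, with a line difference of 0.45. Of these 13 regulators 2 had an unadjusted p under 0.05 above 0 and 2 below 0, and of the 27 Wnt genes 1 and 2. Of 21 stem cell and tumor-initiating markers, 3 were above 0 by that measure and 1 below. MCAM, an adhesion molecule, fell by 0.59 in MNNG and had 0.16 in 143B, but its line difference of 0.75 was -0.44 without probe sets that can match several transcripts. KIT, a receptor kinase, had 0.08 in MNNG, where it lay under the filter value, and -0.60 in 143B.

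Markers of macrophages and myeloid cells were brighter in High, with larger estimates in MNNG than in 143B for most of those tested. Of 18 listed genes 17 were measured and 9 reached the filter. Of those 9, 6 were called higher in MNNG (13.5% of all genes) and none in 143B, where 8 estimates were above 0 (44.7%). The line difference had an unadjusted p under 0.05 for 5, all below 0 (4.92%), and was called for none, with a median of -0.43. Only a marker bright in some group entered the fit, so these counts do not cover the list. Over all 17, the mean log2 signal ran from 5.63 to 6.07 in MNNG_High, 5.12 to 5.27 in MNNG_Low, 4.94 to 5.24 in 143B_High and 4.71 to 4.86 in 143B_Low. Group means under the filter value were found for 8, 10, 11 and 14 of the 17, and CD163, MRC1, LYZ, TYROBP and PTPRC were among the genes that did not reach the filter. AIF1, a macrophage calcium-binding protein, rose by 2.34 ± 0.27 in MNNG and had 1.24 ± 0.28 in 143B. CYBB, a subunit of the phagocyte oxidase, gave 5.49, 5.78, 5.37 and 5.33 in MNNG_Low, 7.41, 7.49, 7.17 and 6.39 in MNNG_High, 5.93, 5.05, 5.68, 5.28 and 5.80 in 143B_Low and 6.11, 5.90 and 6.28 in 143B_High (line difference -1.07 ± 0.32, limma adjusted p = 0.171). FCER1G, an Fc receptor chain, and ITGAM, an integrin of myeloid cells, had line differences of -0.59 and -0.43. The means of FCER1G lay under the filter value in every group but MNNG_High, and those of ITGAM in both 143B groups. Their sizes are thus uncertain. Of the 9 markers tested, 2 had a line difference above 0. The probes are human and the host is a mouse, and the part of these markers in the line difference was not tested.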

How the data were processed

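The authors deposited log2 probe set signals. The submitters' processing notes name RMA, which corrects background, quantile normalizes and summarises probes, without a version. The table holds 54675 probe sets, of which 41097 have 1 gene in the platform annotation, 1801 several and 11777 none. Each of 19775 genes was represented by its probe set of highest mean over 18 arrays, and 19735 were found in the RefSeq table of GRCh38.p14. Genes at or above 5.36, the table's median, on at least 3 of the 16 bone tumor arrays were tested (13521). A gene could pass through the group where it was bright.

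A limma 3.58.1 fit (R 4.3.3) of 4 group means gave High minus Low in each line and their difference, with Benjamini-Hochberg adjustment over genes. The test was run on simulated data. For array measures, two-sided exact permutation tests were used. Alternatives changed the arrays, the tumor block, normalization, filter, probe set, array weights, variance trend and covariates. The date tag in the labels took 3 values. All 143B arrays share 1 tag, and in MNNG all High arrays share a tag with the Low array of tumor MNNG-1231, so a line and its tag cannot be told apart, and in MNNG the tag largely coincides with High against Low.

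Named genes were those called, the 10 of smallest p not called, genes with unadjusted 95% intervals on opposite sides of 0, those largest in MNNG or shared by both lines, and up to 4 members of each list described by smallest p. CXCL14 is named as the call in 143B, and some further list members for their role, chosen after their values were seen. The question, the members and the lists were chosen with earlier results of these data known. Tumor numbers in the labels pair High with Low, which was checked by the correlation of their deviations from the group means over genes. It was 0.51, 0.41, 0.34 and 0.60 in MNNG and 0.56 for 143B tumor 143B-1253. The pool 143B-51&52 gave -0.20 and 0.54 with the Low arrays of its tumors, and the pool 143B-54&55 gave 0.27 and 0.06. With Low arrays of other 143B tumors, 143B-51&52 ran from -0.26 to -0.0004 and 143B-54&55 from -0.34 to 0.27. The check thus does not settle which tumors form 143B-54&55, nor that 143B-1251 is part of 143B-51&52. No detection calls were used, and the number of arrays limits the precision.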

Additional observations from a re-analysis of the deposited data

Results flagged for a closer look

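CELF2 differed between the lines by the test of the difference itself, with a line difference of -3.16 log2 (limma adjusted p = 0.0123, all 3 143B values below all 4 MNNG values).

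Group-wise checks numbered 153, of 47 named genes and of the array measures, in groups of 4 or 5 arrays. In 6 of them, all of named genes, 1 array lay far from the rest of its group. Chance marks about 1 group in 20. CPEB4 was 11.1 on MNNG-1231 High, against 10.1 to 10.2 on the other 3 arrays. AURKB was 6.73 on MNNG-1232 High, under 6.93 to 6.96. ATF3 was 9.91 on MNNG-1231 High, under 10.3 to 10.4. FCER1G was 6.43 on MNNG-1233 High, above 5.75 to 5.84, and 5.01 on MNNG-1231 Low, just under 5.10 to 5.11 and under the filter value. GINS3 was 7.69 on 143B-1254 Low, above 7.48 to 7.53.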

How the results depend on the processing

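CELF2 kept its sign in all 31 other fits and its call in 25. Genes called for the line difference numbered 5 with the tumor as a fixed replicate block, 14 with a random block, 4 after median centring and 128 with array weights, and 0 without probe sets that can match several transcripts, with the interquartile range or the date tag as a covariate, or without both pools. Unadjusted p under 0.05 was still met there by 1674, 1418, 1333 and 1357 genes. MNNG calls were 3467 with 18 arrays, 2815 after quantile normalization, 2223 with the GAPDH ratio, 0 with the interquartile range and 451 with the date tag. 143B calls were 7 and 6 with the fixed and random block, 2 after quantile normalization or with the interquartile range, 186 with array weights, and 0 without those probe sets, with the date tag or without the pools. Opposite genes numbered 7 with the random block, 2 after centring and 20 with weights. The weighted MNNG_High mean rests largely on MNNG-1232 High. Genes of MNNG alone numbered 3 and 5 with the blocks, 96 with weights, and 1 after centring, with probe set means or with the GAPDH ratio. With weights 2 genes were of 143B alone. Genes of the same direction numbered 2 with either block, 10 with weights, and 0 with probe set means, the GAPDH ratio, the interquartile range, the date tag, without those probe sets or without the pools. The cause was not tested.

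Leaving out 1 array gave 0 to 189 genes for the line difference, 3765 to 7747 in MNNG, 0 to 14 in 143B, 0 to 15 opposite, 0 to 159 of MNNG alone and 0 to 15 of the same direction. The lowest MNNG count was without MNNG-1231 High and the highest of each without MNNG-1235 High. In such fits CXCL14 ran from -0.33 to 0.30 and ACSL4 from -0.29 to 0.48.

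Line differences near 0 changed sign. CXCL14 was -0.039 with the fixed block, -0.088 after quantile normalization and -0.040 with probe set means. ACSL4 was -0.061 and -0.024 with the fixed and random block, -0.096 after quantile normalization, -0.26 with probe set means, -0.30 without probe sets that can match several transcripts, -0.25 with the GAPDH ratio and -0.94 with the interquartile range. Without those probe sets MBD4 was -0.18 and MCAM -0.44, and with probe set means ALDH1L2 was -0.14. With the interquartile range PTGR2 was -0.22, ALDH1L2 -0.12, SLAIN1 -0.056, MYC -0.035 and THBS4 0.47. THBS4 was also 0.051 with weights, 0.29 with the date tag and 0.19 without the pools. The fixed block changed no other call of a named gene than those given with the results. With 3 143B_High samples the unadjusted 95% interval of a line difference reached 0.45 log2 either side at the median. After adjustment even 1.23 ± 0.19 (AGMAT) did not pass.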

Other observations

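The line difference changed with signal. Its median was -0.12 in the dimmest of 3 equal groups of genes by mean signal, 0.25 in the middle group and 0.25 in the brightest. In MNNG the High minus Low medians of these groups were 0.19, -0.31 and -0.33, and in 143B 0.06, -0.04 and -0.07.

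Several genes with large differences in MNNG followed one order of tumors. CXCL14, RNF5, THBS4 and AIF1 were each brightest in tumors MNNG-1231 and MNNG-1233 and dimmer in MNNG-1232 and MNNG-1235, in High and in Low arrays. RNF5, for instance, was 7.05 and 7.06 against 6.19 and 6.20 in Low, and 10.7 and 9.92 against 9.26 and 8.69 in High. In 143B_Low, tumors 143B-1251, 143B-1253 and 143B-1255 lay above 143B-1252 and 143B-1254 for CXCL14, at 7.41, 7.53 and 7.43 against 6.46 and 6.21. These genes were singled out after their values were seen.

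Lists of other cell types had medians above 0 in both lines. In MNNG and 143B the values were 0.41 and 0.09 for T and B cell markers (4 of 9 measured genes tested), 0.43 and 0.13 for neutrophils (2 of 10), 0.45 and 0.14 for erythroid cells (3 of 7), 0.30 and 0.12 for skeletal muscle (9 of 16) and 0.23 and 0.17 for endothelium (7 of 12). They were 0.30 and 0.17 for lung epithelium (8 of 10), 0.19 and 0.01 for adipocytes (5 of 8), 0.15 and 0.32 for osteoclasts (7 of 10) and 0.02 and 0.19 for fibroblasts and pericytes (9 of 10). A marker could be tested through the group where it was bright. In every list some measured members had group means under the filter value. The dimmest group of all genes tested, described above, also had medians above 0, at 0.19 in MNNG and 0.06 in 143B. The part of signal level in the list medians was not tested. No member of these cell type lists was called for the line difference.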
